A study of Mus musculus with 9 samples.

Results

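The 10 genes described here carry the antioxidant and glutathione response that is centred on the transcription factor Nrf2: Nfe2l2, Hmox1, Nqo1, Gclc, Gclm, Slc7a11, Txnrd1, Srxn1, Gsr and Prdx1. They were chosen by name as genes of this pathway, with earlier results of these data known. They are 10 of the 45777 genes in the files, and all 10 were among the 13820 genes tested, which had at least 1 TPM (a level corrected for gene length and library size) in at least 3 of the 9 samples. RNA was sequenced in bulk from CD11b+ cells (myeloid cells, isolated by an integrin chain) of mouse livers, 48 h after an intraperitoneal dose of APAP (acetaminophen), which causes acute liver failure. The 3 groups of 3 samples all had APAP. The PBS group then had saline, the HEK-EV group had extracellular vesicles from HEK cells (a human kidney cell line), and the MSC-EV group had vesicles from MSC, with the vesicles given intravenously 8 h after APAP. Both kinds of vesicle are labelled SIRP-EV, a name that the labels do not spell out. Mouse strain, age, sex and APAP dose are not given in the sources used here, and no group without APAP was analysed here. The labels call the samples replicates and do not say that each is 1 animal, so the p-values measure only the spread between these samples, which may be technical.

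Nrf2, the product of Nfe2l2, is held in the cytoplasm by Keap1, which passes it to a ubiquitin ligase for breakdown. Oxidants and electrophiles modify Keap1, and Nrf2 then builds up, pairs with a small Maf protein and binds antioxidant response elements (AREs) near its target genes, where the repressor Bach1 competes with it. Targets import cystine, make and recycle glutathione, feed the thioredoxin and peroxiredoxin systems and break down haem. In the liver the pathway is known for its part in APAP injury, in which a reactive metabolite of the drug uses up glutathione. Nrf2 is controlled mainly as a protein, which these RNA data do not measure.

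The DNA before the start sites is shown for 3 members because the ARE is the letter pattern that links this family. RefSeq promoter windows (build GRCm38.p6, from 250 bases before to 50 bases after a start site) were at hand for 7 members in 9 windows: Nfe2l2, Nqo1, Gclm, Slc7a11, Txnrd1 with 3 windows, Srxn1 and Prdx1. They were searched on both strands for the ARE core TGACNNNGC, which 12.4% of all 32851 windows held. It was in 5 of the 9 windows, those of Nfe2l2, Gclm, Srxn1 and Prdx1 and 1 of the 3 of Txnrd1, and was not found in these windows for Nqo1 or Slc7a11. The Slc7a11 window, at chr3:50443564-50443863, lies inside the span of the gene given below. Its result therefore does not concern the DNA before that span. The Txnrd1 window with the match, at chr10:82858956-82859255, also lies inside its gene's span. Each window is printed 5′ to 3′ on the gene's strand, up to the gene's start, with the ARE core in capitals. Nfe2l2, the factor itself, is at chr2:75704664-75704913 on the minus strand. Gclm, the glutathione synthesis gene, is at chr3:122245307-122245486 on the plus strand. Prdx1, the most abundant member, is at chr4:116685349-116685598 on the plus strand.
Nfe2l2: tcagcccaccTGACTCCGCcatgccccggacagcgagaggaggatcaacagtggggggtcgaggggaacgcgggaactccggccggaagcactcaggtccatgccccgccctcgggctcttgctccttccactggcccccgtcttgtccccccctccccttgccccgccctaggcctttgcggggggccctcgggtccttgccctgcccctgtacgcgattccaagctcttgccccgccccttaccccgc
Gclm: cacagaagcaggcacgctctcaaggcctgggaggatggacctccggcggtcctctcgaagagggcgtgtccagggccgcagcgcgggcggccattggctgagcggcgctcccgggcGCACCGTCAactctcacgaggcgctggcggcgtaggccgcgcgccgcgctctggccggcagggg
Prdx1: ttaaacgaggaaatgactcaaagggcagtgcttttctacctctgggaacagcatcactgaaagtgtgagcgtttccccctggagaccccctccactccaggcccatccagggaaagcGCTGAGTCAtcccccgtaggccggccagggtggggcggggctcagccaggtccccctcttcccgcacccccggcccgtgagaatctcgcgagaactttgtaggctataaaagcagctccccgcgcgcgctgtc
Counted from the RefSeq start site, the match begins at −240 in Nfe2l2, −134 in Gclm and −133 in Prdx1, and in the windows not printed at −92 in Txnrd1 and 28 in Srxn1. It reads TGACTCCGC on the gene's strand in Nfe2l2, while the capitals of Gclm and Prdx1 are matches on the other strand. The pattern TGANTCA, the AP-1 site that resembles the ARE, was in 2 windows, those of Srxn1 and Prdx1, against 7.81% of all windows, and in Prdx1 one of its 2 matches overlapped the ARE core. A match of letters is a description and no measured binding site.

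The files hold no read counts, so sequencing depth is unknown. The ratio of the deposited coverage to FPKM, which moves with depth, ran from 5.28 in PBS replicate 1 to 6.85 in MSC-EV replicate 2 and was above 6.5 in all MSC-EV samples, and 13130 to 13633 genes reached 1 TPM in a sample. Itgam, which encodes CD11b, had a mean of 329.8 ± 44.3 TPM in PBS, 371.9 ± 54.1 TPM with HEK-EV and 228.6 ± 29.6 TPM with MSC-EV (SD, n = 3 each, as for all means here), and MSC-EV gave a log2 fold change of −0.53 against PBS (adjusted p = 0.0553) and −0.70 against HEK-EV (0.0257). Ptprc, which encodes the leukocyte antigen CD45, had 584.6 ± 66.0, 613.5 ± 49.5 and 423.5 ± 4.85 TPM in the same order and was lower with MSC-EV in both comparisons (−0.46, adjusted p = 0.0271, and −0.53, 0.0207), and the part of either in the results was not tested. Markers of pancreatic acinar cells stood apart in HEK-EV replicates 1 and 2 and MSC-EV replicates 1 and 3, with summed levels of 41.7, 1216, 159 and 3445 TPM against 13.3 to 15.2 TPM in the other 5 samples. Mitochondrial genes made up 7.55% to 7.9% of TPM in the MSC-EV samples and 5.44% to 6.48% in the other 6, so this share separated the MSC-EV group, and its part in the results below was not tested. Because these are bulk samples, fewer cells of a type and less RNA per cell cannot be told apart.

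The members spanned a wide range of levels. Averaged over the 9 samples and in TPM, the order was Prdx1 at 904.3, Hmox1 at 875.8, Nfe2l2 at 322.1, Gsr at 250.1, Txnrd1 at 107.6, Gclm at 34.3, Gclc at 33.8, Srxn1 at 24.0, Slc7a11 at 5.87 and Nqo1 at 1.51. Prdx1 and Hmox1 ranked 170 and 175 among all genes by mean level, while Nqo1, a quinone reductase widely used as a readout of Nrf2, ranked 12665. Prdx1 and Hmox1, Nfe2l2 and Gsr, and Gclm and Gclc are neighbours in this order whose sample values overlap. For Nfe2l2, Txnrd1 and Gclc the deposited coverage stood at 15.5%, 19.6% and 23.5% of what their FPKM gave for other genes, so their places in the order hold for TPM only.

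**Figure D1:**
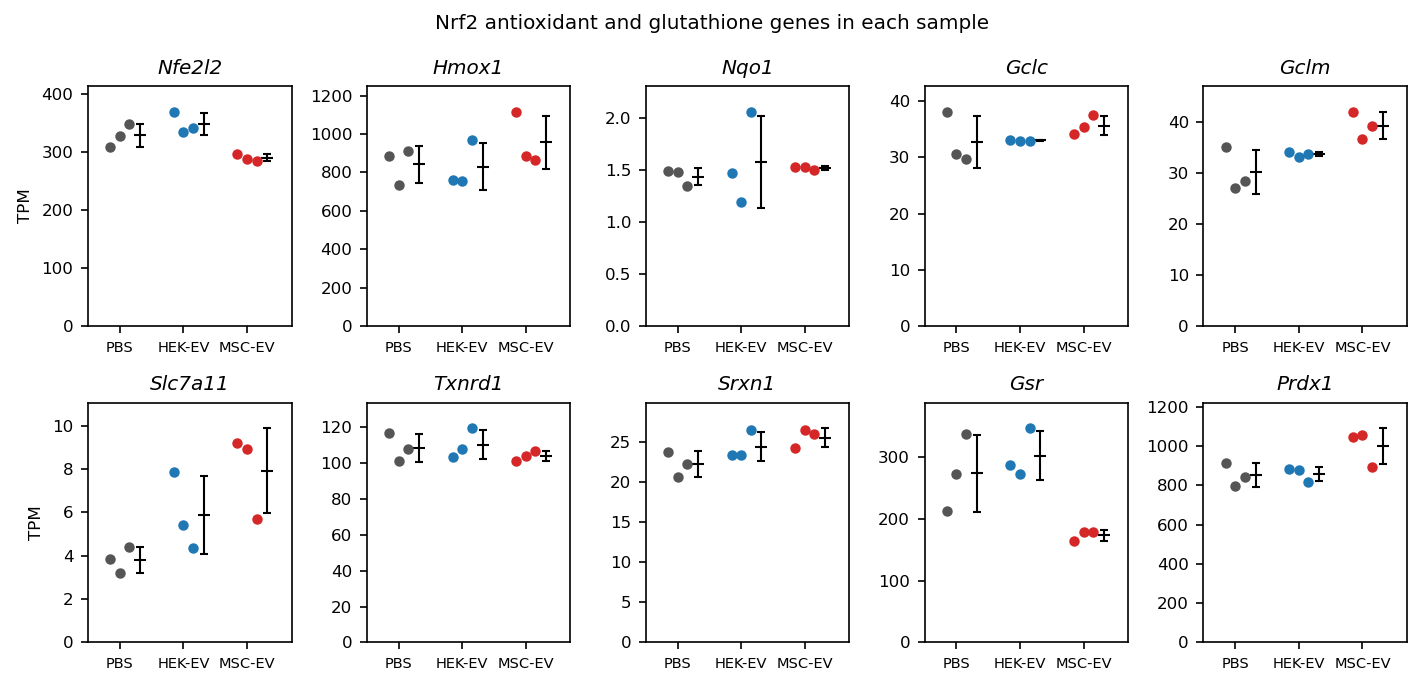
TPM (vertical axis, from 0) of the 10 genes in the 3 PBS (grey), 3 HEK-EV (blue) and 3 MSC-EV (red) samples, with the mean and SD of each group in black. The MSC-EV samples lie below all others for Gsr and Nfe2l2 and above all others for Gclm.

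Against PBS, the MSC-EV group had lower RNA for glutathione reductase, the enzyme that returns oxidised glutathione to its reduced form, and no member rose past the threshold. Which member passed depended on the scaling: with FPKM, median-of-ratios scaling or quantile normalisation Gsr did not pass (adjusted p = 0.0751, 0.0667 and 0.0515) and Gclm did, with higher values (0.0404, 0.0415 and 0.0359). Of the 10 members 1 passed (Gsr, lower), where 5.11% of all genes tested passed, 1.86% higher and 3.25% lower (limma on log2(TPM + 1), adjusted p under 0.05 over all genes). Before adjustment, 6 members had a p under 0.05, against 23% of all genes: Gclm, Slc7a11, Srxn1 and Prdx1 with higher and Nfe2l2 and Gsr with lower values. The sample values of the 2 groups did not overlap for 6 members (Nqo1, Gclm, Slc7a11 and Srxn1 higher, Nfe2l2 and Gsr lower), against 26% of all genes, 11.2% higher and 14.9% lower. The median log2 fold change of the members was 0.15, against 0.010 over all genes tested. None of the 10 passed between HEK-EV and PBS, where 0% of all genes passed, with an adjusted p of 0.999 for each. There, 1 member (Slc7a11) had an unadjusted p under 0.05, against 3.58% of all genes, and no member's groups were apart, against 7.81% of all genes, 5.51% higher and 2.29% lower. Between the vesicle groups 2 members passed, Nfe2l2 and Gsr, both lower with MSC-EV, where 5.91% of all genes passed, 1.51% higher and 4.4% lower. Values did not overlap there for 5 members, Gclc, Gclm and Prdx1 higher and Nfe2l2 and Gsr lower, against 30.1% of all genes, 12.6% higher and 17.5% lower. The PBS samples enter both comparisons with PBS, so those comparisons are not independent of each other.

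**Figure D2:**
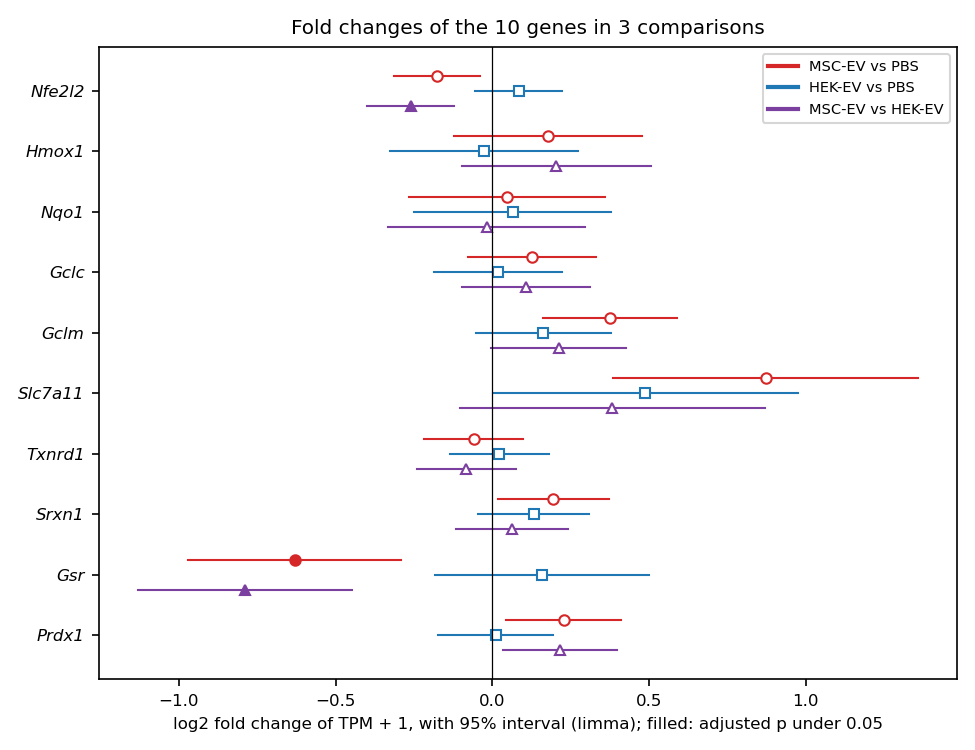
Log2 fold change of TPM + 1 with its 95% interval (horizontal axis) for each member and each of the 3 comparisons, with filled symbols where the adjusted p was under 0.05. The filled symbols are Gsr in MSC-EV against PBS at −0.63 and, in MSC-EV against HEK-EV, Gsr at −0.79 and Nfe2l2 at −0.26.

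Nfe2l2 encodes Nrf2 (gene ID 18024, chr2:75675513-75704663, minus strand, mm10). Its level was 308.2, 328.2 and 348.5 TPM in the PBS samples, 369.3, 334.1 and 340.5 TPM with HEK-EV and 296.7, 288.6 and 284.9 TPM with MSC-EV. The 3 MSC-EV values were the lowest of the 9 and lay close together, while PBS and HEK-EV values overlapped. The MSC-EV mean of 290.1 ± 6.04 TPM stood below the HEK-EV mean of 347.9 ± 18.8 TPM, a log2 fold change of −0.26 (SE 0.0617, 95% interval −0.40 to −0.12, adjusted p = 0.0424). Against the PBS mean of 328.3 ± 20.1 TPM the difference was −0.18 (interval −0.32 to −0.04, adjusted p = 0.124), which did not pass. The call between vesicle groups was lost when any of 7 libraries was left out: PBS replicate 2 (adjusted p = 0.0619), HEK-EV replicates 1 (−0.22, 0.123), 2 (−0.29, 0.0731) and 3 (−0.28, 0.0915), and MSC-EV replicates 1 (−0.28, 0.118), 2 (0.123) and 3 (−0.25, 0.085). It was also lost with FPKM (−0.19, adjusted p = 0.213), median-of-ratios scaling (−0.23, 0.143) and quantile normalisation (−0.15, 0.134), and with the value unmoved at −0.26 without a filter (0.0702), with a replicate block (0.0899) and with the acinar split as a term (0.0655).

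Among 16 regulators and partners of Nrf2, of which 15 were tested, 1 gene passed in MSC-EV against PBS, where 5.11% of all genes did. Bach1, the haem-sensitive repressor that competes with Nrf2 for AREs, fell from 101.8 ± 11.5 TPM in PBS to 77.3 ± 1.79 TPM with MSC-EV (log2 fold change −0.39, adjusted p = 0.0380) and was also lower than the 98.4 ± 7.53 TPM with HEK-EV (−0.34, adjusted p = 0.0494). The call against PBS was kept in 5 of 21 alternatives (adjusted p up to 0.401) and that against HEK-EV in 6 (up to 0.560). With 1 library left out, the first held only without PBS replicate 1 (−0.46, 0.00874) or HEK-EV replicate 1 (0.0423), and the second only without PBS replicate 1 (0.0228) or 2 (0.0402). Keap1, the inhibitor of Nrf2, had a log2 fold change of −0.20 against PBS (adjusted p = 0.218). The list's median log2 fold change was 0.046, against 0.010 over all genes. Bach1 was also the 1 call of the 15 in MSC-EV against HEK-EV, where 5.91% of all genes passed.

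Glutathione synthesis begins with cystine import by Slc7a11, the exchanger subunit of system xc- (gene ID 26570, chr3:50364936-50499087, minus strand). Slc7a11 read 3.84, 3.21 and 4.39 TPM in PBS, 7.88, 5.40 and 4.35 TPM with HEK-EV and 9.18, 8.92 and 5.67 TPM with MSC-EV. Every MSC-EV sample exceeded every PBS sample, and the HEK-EV samples ran from the PBS range into the MSC-EV range. Its log2 fold change of 0.87 in MSC-EV against PBS had the largest size of the 10 members (SE 0.216, interval 0.39 to 1.36, adjusted p = 0.0520) and stood just outside the threshold. Against PBS the HEK-EV value was 0.49 (interval 0.0022 to 0.98, unadjusted p = 0.0492), and MSC-EV differed from HEK-EV by 0.38 (adjusted p = 0.328). The call of MSC-EV against PBS was gained without HEK-EV replicate 1 (adjusted p = 0.042), HEK-EV replicate 3 (0.0487) or MSC-EV replicate 3 (1.07, 0.0373). It was also gained in 1 of the 12 alternatives of other kinds (limma, adjusted p = 0.00184). A stretch of 373 bases of the Slc7a11 transcript was 96.2% identical to the tubulin gene Tuba1b, whose mean level was 591.0 TPM, so reads there could be split between them. Other copies of this stretch at 95% identity or more that the files hold were Tuba1c, Tuba1a and the pseudogenes Gm14150, Gm3226, Gm5620 and Gm3756, at 244, 116, 84.7, 53.6, 26.7 and 6.61 TPM. In MSC-EV against PBS, Tuba1b had a log2 fold change of 0.14 (adjusted p = 0.399), Tuba1c 0.06 (0.727), Tuba1a 0.03 (0.844), Gm14150 0.11 (0.65) and Gm3226 0.09 (0.704).

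Glutamate-cysteine ligase, the rate-limiting enzyme of glutathione synthesis, has a catalytic subunit, Gclc (gene ID 14629, chr9:77754535-77794489, plus strand), and a modifier subunit, Gclm (gene ID 14630, chr3:122245487-122267215, plus strand). Gclm read 35.1, 27.0 and 28.3 TPM in PBS, 34.0, 33.1 and 33.8 TPM with HEK-EV and 42.0, 36.6 and 39.1 TPM with MSC-EV. The MSC-EV values were the highest of the 9, although the gap to PBS replicate 1 was small. The mean was 39.2 ± 2.69 TPM with MSC-EV against 30.1 ± 4.33 TPM in PBS (log2 fold change 0.38, SE 0.0956, interval 0.16 to 0.59, adjusted p = 0.0553), and against HEK-EV the value was 0.21 (adjusted p = 0.219). The call against PBS was gained without PBS replicate 1 (0.49, adjusted p = 0.00425) and with FPKM (0.40, 0.0404), median-of-ratios scaling (0.37, 0.0415), quantile normalisation (0.40, 0.0359), a minimum of 5 TPM (0.0498), array quality weights (0.52, 0.00112) and a depth covariate (0.65, 0.00921), while over all 21 alternatives its adjusted p ran from 0.00112 to 0.616. Gclc read 38.1, 30.6 and 29.7 TPM in PBS, 33.2, 32.9 and 33.0 TPM with HEK-EV and 34.2, 35.3 and 37.5 TPM with MSC-EV. The PBS samples enclosed all the others, and the log2 fold change of MSC-EV against PBS was 0.13 (interval −0.08 to 0.33, adjusted p = 0.458). Gclm shares 735 bp of its span on the same strand with the predicted gene Gm6061, at 42.0 TPM and with a log2 fold change of 0.22 (adjusted p = 0.351), so its reads may be shared.

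Gsr, glutathione reductase (gene ID 14782, chr8:33653238-33698162, plus strand), was the member that passed in both MSC-EV comparisons. It read 212.2, 273.3 and 337.0 TPM in PBS, 287.7, 272.5 and 346.9 TPM with HEK-EV and 163.6, 178.8 and 178.8 TPM with MSC-EV. The PBS samples were widely spread, the MSC-EV samples lay close together and below all 6 others. Its mean fell to 173.7 ± 8.78 TPM with MSC-EV from 274.2 ± 62.4 TPM in PBS (log2 fold change −0.63, SE 0.152, interval −0.97 to −0.29, adjusted p = 0.0477) and stood below the 302.4 ± 39.4 TPM of HEK-EV (−0.79, interval −1.13 to −0.45, adjusted p = 0.0257). From these log2 fold changes, the MSC-EV level was 0.646 times that in PBS and 0.579 times that with HEK-EV. HEK-EV against PBS gave 0.16 (interval −0.18 to 0.50). The call against PBS was lost without PBS replicate 2 (−0.62, adjusted p = 0.174), PBS replicate 3 (−0.47, 0.126), HEK-EV replicate 1 (0.0605) or 2 (0.0695), or MSC-EV replicate 1 (−0.59, 0.165), 2 (−0.65, 0.114) or 3 (−0.65, 0.0805), and became −0.80 (adjusted p = 0.00474) without PBS replicate 1. The call against HEK-EV was lost without HEK-EV replicate 1 (−0.82, 0.0656), 2 (−0.86, 0.056) or 3 (−0.69, 0.0729), or MSC-EV replicate 1 (−0.75, 0.104) or 2 (−0.81, 0.0756). Without a filter neither call passed (adjusted p = 0.105 and 0.0610), nor with FPKM (−0.58, 0.0751, and −0.72, 0.0505), and the call against PBS alone was lost with median-of-ratios scaling (0.0667), quantile normalisation (−0.56, 0.0515), the 6 samples compared (0.0747) and the acinar split as a term (−0.51, 0.214).

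Monocyte markers were lower in the same samples as Gsr. All 12 markers of Ly6C-high monocytes had lower mean log2 values with MSC-EV than in PBS, 6 of them past the threshold, where 3.25% of all genes fell, with a median log2 fold change of −1.03. Their summed level was 7099, 13360 and 13980 TPM in PBS, 8987 to 11320 TPM with HEK-EV and 4481 to 5408 TPM with MSC-EV. PBS replicate 1, with the lowest Gsr of its group, also had the lowest monocyte sum of its group, at a level above every MSC-EV sample. The 14 neutrophil markers summed to 3504, 4673 and 6354 TPM in PBS, 5625 to 7898 TPM with HEK-EV and 3504 to 4361 TPM with MSC-EV. PBS and MSC-EV overlapped, and only Ltf, with a higher value, passed against PBS. The sums with MSC-EV and HEK-EV did not overlap. Between these, 10 markers had lower and 4 higher values with MSC-EV (median log2 fold change −0.48). There, 11 had an unadjusted p under 0.05 (limma), where 23.3% of all genes did. Csf3r passed as lower (−0.35, adjusted p = 0.0402; 4.4% of all genes) and Ltf as higher (1.20, 0.0205; 1.51%). The 14 markers of lipid-associated macrophages summed to 16030 to 19980 TPM in PBS, 18860 to 20330 TPM with HEK-EV and 30050 to 34560 TPM with MSC-EV, and 10 of them rose, where 1.86% of all genes did. All 12 liver endothelial markers also had lower values with MSC-EV than in PBS, with a median log2 fold change of −0.81, and none passed (limma; 12 at an unadjusted p under 0.05, against 23% of all genes). Their summed level was 383.8 to 478.0 TPM in PBS, 253.4 to 561.1 TPM with HEK-EV and 165.1 to 317.6 TPM with MSC-EV. No marker in these 4 lists was under 1 TPM in every sample, and their part in the results for Gsr and the other members was not tested. Over the 9 samples, and among 9766 genes, the 3 whose log2 levels were most alike to Gsr were Hp (haptoglobin, itself on the monocyte list; Pearson r = 0.99), Trib1 and Lilra6 (r = 0.99 each). For Nfe2l2 they included Ppt1 (r = 0.98) and Hif1a (r = 0.98). These correlations describe samples that share the difference between groups.

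**Figure D3:**
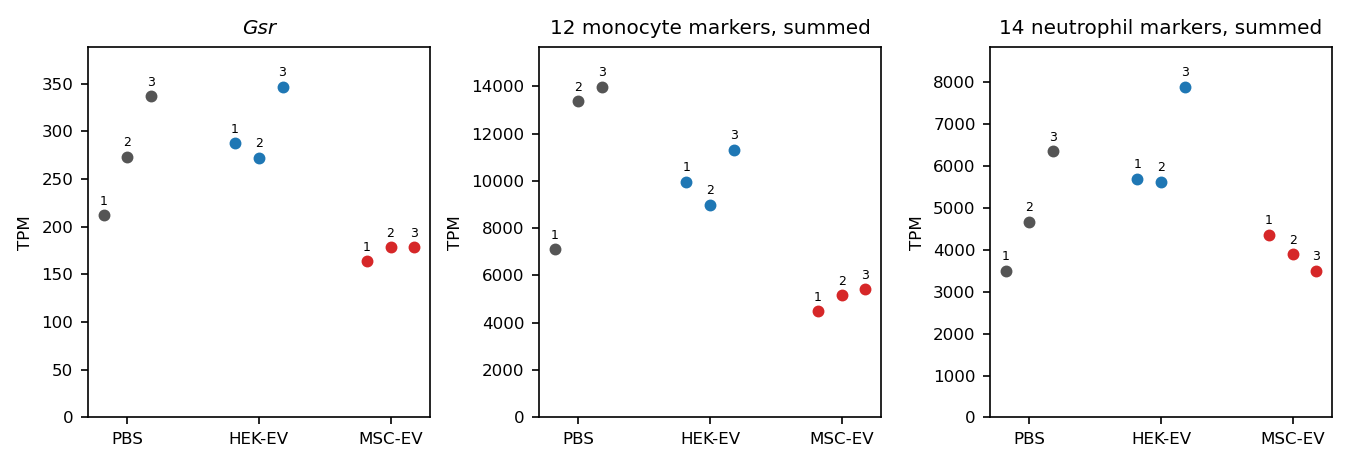
TPM in each of the 9 samples (vertical axes, from 0; numbers are replicates) of Gsr and of the summed monocyte and neutrophil markers, in PBS (grey), HEK-EV (blue) and MSC-EV (red). For Gsr and the monocyte sum the MSC-EV samples, at 163.6 to 178.8 and 4481 to 5408 TPM, lie below all others.

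The wider list of glutathione enzymes held 22 genes, 19 of them tested, of which 1 fell and none rose in MSC-EV against PBS (5.11% of all genes passed). In MSC-EV against HEK-EV 4 of the 19 passed, 1 higher and 3 lower, a share of 21.1% beside 5.91% of all genes. Gpx1, the abundant cytosolic glutathione peroxidase, fell from 1649 ± 140 TPM in PBS to 1186 ± 113 TPM (log2 fold change −0.48, adjusted p = 0.0251) and was lower than the 1576 ± 42.7 TPM with HEK-EV (−0.41, adjusted p = 0.0308). Against HEK-EV, Ggct, which acts on gamma-glutamyl dipeptides, was lower by a log2 fold change of −0.60 (adjusted p = 0.0438), and Ggt5, a gamma-glutamyl transferase, by −0.66 (0.0443). Gpx4, the peroxidase of lipid hydroperoxides, was higher by 0.32 (0.0341). Of 28 genes for glutathione S-transferases and conjugate export, 23 were tested, and 2 rose against PBS, 8.70% beside 5.11% of all genes: Gstt2 (0.61, adjusted p = 0.0300) and Gstz1 (0.49, 0.0465). Of the 17 hepatocyte markers tested, 16 had higher values in the same comparison, 4 of them past the threshold, with a median log2 fold change of 0.72, and their part in these results was not tested. The exporter Abcc4 was lower against HEK-EV (−0.30, 0.0292), the 1 call of the 23 there, 4.35% beside 5.91% of all genes.

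Both glutathione reductase and thioredoxin reductase use NADPH. Of the 11 enzymes listed for its supply, not all of which make NADPH themselves, 10 were tested. None rose and 2 fell in MSC-EV against PBS, where 5.11% of all genes passed, and the median log2 fold change was −0.20 against 0.010 over all genes. Before adjustment 9 of the 10 had a p under 0.05, against 23% of all genes, and they pointed both ways: 6 were lower, while the isocitrate dehydrogenases Idh1 (0.21, adjusted p = 0.127) and Idh2 (0.30, 0.113) and the pentose phosphate enzyme Pgls (0.18, 0.0910) were on the higher side. Nadk, the cytosolic NAD kinase, fell from 258.2 ± 30.1 to 183.6 ± 9.65 TPM (−0.48, adjusted p = 0.0236), and its level with HEK-EV was 263.9 ± 5.96 TPM (MSC-EV against HEK-EV −0.52, adjusted p = 0.0207). Mthfd2, of mitochondrial folate metabolism, fell by 0.32 on the log2 scale (adjusted p = 0.0316). Its means were 29.28 TPM in PBS, 25.5 TPM with HEK-EV and 23.15 TPM with MSC-EV. HEK-EV against PBS gave −0.19 (interval −0.34 to −0.04, adjusted p = 0.999), and MSC-EV against HEK-EV −0.13 (adjusted p = 0.273). G6pdx, which opens the pentose phosphate pathway, was lower against HEK-EV (−0.24, adjusted p = 0.0387). Nadk and G6pdx were the 2 of the 10 that passed there, both lower, where 5.91% of all genes passed.

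The thioredoxin branch of the members showed no call. Prdx1, a peroxiredoxin that reduces hydrogen peroxide (gene ID 18477, chr4:116685599-116700000, plus strand), read 916.8, 797.7 and 845.3 TPM in PBS, 881.7, 878.6 and 816.6 TPM with HEK-EV and 1047, 1059 and 896.2 TPM with MSC-EV. MSC-EV replicates 1 and 2 were above all others, while replicate 3 was within the PBS range (log2 fold change against PBS 0.23, SE 0.0814, interval 0.04 to 0.41, adjusted p = 0.131). Its processed pseudogene Gm21399, 98.3% identical over 597 bases, had 1.47 TPM. Srxn1, sulfiredoxin, which repairs over-oxidised peroxiredoxins (gene ID 76650, chr2:152105524-152111376, plus strand), read 23.8, 20.6 and 22.2 TPM in PBS, 23.4, 23.4 and 26.5 TPM with HEK-EV and 24.2, 26.4 and 26.0 TPM with MSC-EV. The MSC-EV samples lay just above the PBS samples (0.20, interval 0.02 to 0.37, adjusted p = 0.177). Txnrd1, cytosolic thioredoxin reductase (gene ID 50493, chr10:82833951-82897724, plus strand), read 116.5, 101.2 and 107.9 TPM in PBS, 103.4, 108.0 and 119.4 TPM with HEK-EV and 101.3, 103.8 and 106.7 TPM with MSC-EV. All 3 groups overlapped, and MSC-EV against PBS gave −0.06 (interval −0.22 to 0.10, adjusted p = 0.680). Txnrd1 shares 1305 bp on the same strand with Eid3, at 2.36 TPM, and 13794 bp with Gm38560 on the other strand, at 1.64 TPM.

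Of 19 other thioredoxins, peroxiredoxins, superoxide dismutases and related genes, all tested, 1 rose in MSC-EV against PBS, a share of 5.26% beside 5.11% of all genes. Sod3, the extracellular superoxide dismutase, had means of 0.885 ± 0.188 TPM in PBS, 0.520 ± 0.117 TPM with HEK-EV and 1.91 ± 0.224 TPM with MSC-EV, a log2 fold change of 0.63 against PBS (adjusted p = 0.0359) and 0.94 against HEK-EV (adjusted p = 0.0205). Sod3 reached 1 TPM only in the 3 MSC-EV samples and PBS replicate 1, so it was tested through the group in which it was high, had to differ, and its calls are a description. At such low levels the log2(TPM + 1) scale understates the fold. Sesn2, a stress-induced sestrin, was lower with MSC-EV than with HEK-EV (−0.32, adjusted p = 0.0494). Sod3 and Sesn2 were the 2 calls of the 19 there, 10.5% beside 5.91% of all genes.

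Haem oxygenase 1, the product of Hmox1 (gene ID 15368, chr8:75093618-75100593, plus strand), breaks haem down to iron, carbon monoxide and biliverdin. It read 883.7, 732.7 and 911.2 TPM in PBS, 761.5, 756.6 and 969.5 TPM with HEK-EV and 1116, 884.2 and 866.3 TPM with MSC-EV. The groups overlapped, with 1 high MSC-EV sample, and MSC-EV against PBS gave 0.18 (SE 0.134, adjusted p = 0.478). Of 9 genes of haem breakdown and iron handling none passed in any comparison (limma), and before adjustment 5 had a p under 0.05 for MSC-EV against PBS, where 23% of all genes did, among them Hmox2, the constitutive haem oxygenase, with a negative value (−0.21, adjusted p = 0.0954). The list's median log2 fold change there was 0.27, against 0.010 over all genes. Blvrb, a biliverdin reductase, had 168.9 ± 9.69 TPM in PBS and 217.3 ± 25.8 TPM with MSC-EV (0.36, adjusted p = 0.0591), and the iron store subunit Fth1 gave 0.32 (0.0955). Nqo1 (gene ID 18104, chr8:107388225-107403205, minus strand) read 1.49, 1.48 and 1.34 TPM in PBS, 1.47, 1.19 and 2.06 TPM with HEK-EV and 1.53, 1.53 and 1.496 TPM with MSC-EV. Its MSC-EV and PBS values were barely apart (0.05, SE 0.140, adjusted p = 0.879), and the HEK-EV samples spanned both.

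Of 25 further genes often given as Nrf2 targets, 20 were tested, and 3 rose and none fell in MSC-EV against PBS, where 5.11% of all genes passed. Akr1a1, an aldehyde reductase, rose from 890.8 ± 70.5 to 1175 ± 103 TPM (0.40, adjusted p = 0.0339) and exceeded the 880.5 ± 45.9 TPM with HEK-EV (0.41, adjusted p = 0.0283). Gla, the lysosomal alpha-galactosidase A, rose by 0.47 against PBS (0.0328) and was 0.44 higher than with HEK-EV (0.0366). Aldh1a1, a retinaldehyde dehydrogenase, rose by 0.70 against PBS (0.0424). Higher values against PBS were also seen for 16 of 17 tested hepatocyte markers and all 14 markers of lipid-associated macrophages. Of these 4 and 10 passed, where 1.86% of all genes rose, and their part in these results was not tested. Cd36 is on both the macrophage marker list and the list of 25 genes, so these 2 lists are not separate. Of the 20 genes, 2 passed in MSC-EV against HEK-EV, both higher, where 5.91% of all genes passed. Together the 7 lists held 130 genes, 115 of them tested. In MSC-EV against PBS 10 passed, 6 higher and 4 lower, which is 8.70% against 5.11% of all genes. In MSC-EV against HEK-EV 12 passed, 4 higher and 8 lower, which is 10.4% against 5.91%. Both counts include Sod3, which was tested through the group in which it was high, so both shares are a description. In HEK-EV against PBS none passed (limma), and 8 of the 115 had an unadjusted p under 0.05, where 3.58% of all genes did.

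**Figure D4:**
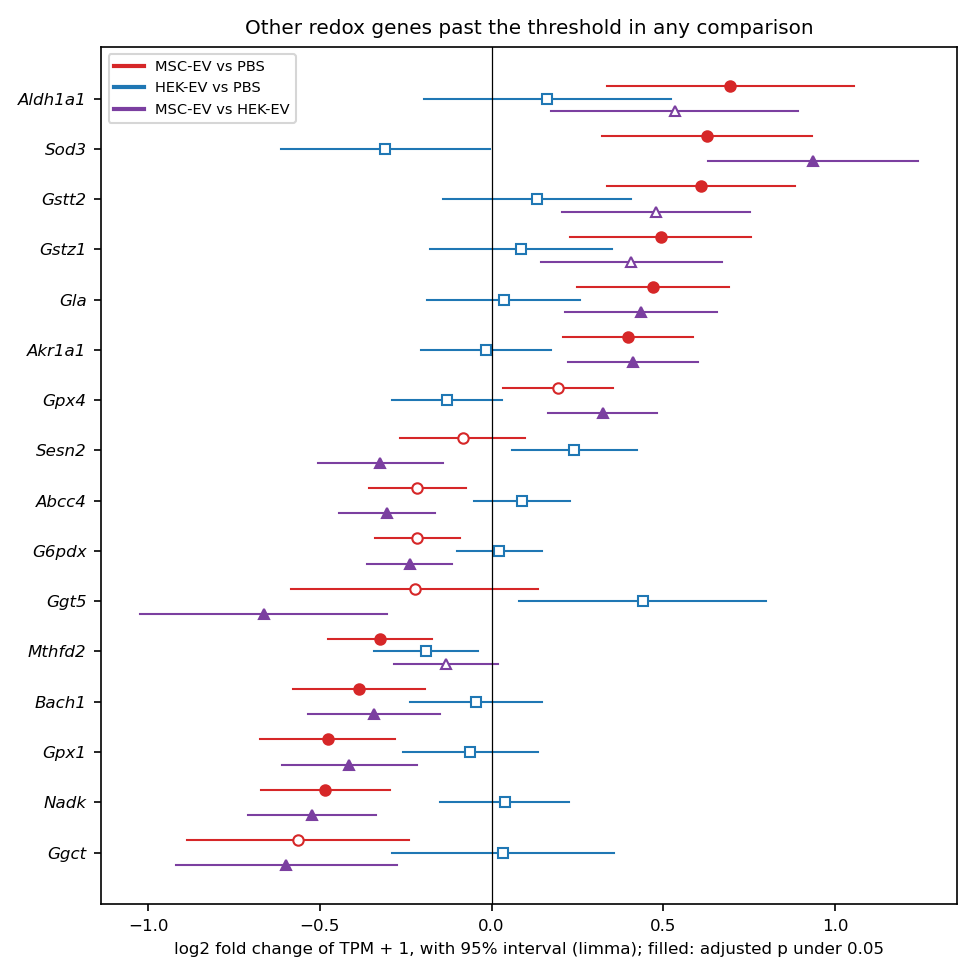
Log2 fold change of TPM + 1 with its 95% interval (horizontal axis) for the 16 other redox genes past the threshold in at least 1 comparison, filled where the adjusted p was under 0.05. Gpx1, Nadk and Bach1 were lower and Gla, Akr1a1 and Sod3 higher with MSC-EV in both of its comparisons, and no HEK-EV against PBS symbol is filled.

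These list counts moved with single libraries and settings. Against PBS the call was kept in 13 of 21 alternatives for Nadk, 12 for Gpx1 and Akr1a1, 11 for Gla, 9 for Mthfd2 and 8 for Gstz1, and in 10 and 5 of 20 for Gstt2 and Aldh1a1. Against HEK-EV it was kept in 14 of 21 for Nadk and Akr1a1, 12 for Gpx1, 11 for Gla and Abcc4, 9 for Gpx4, 8 for Ggt5, 7 for Ggct and G6pdx and 4 for Sesn2. In MSC-EV against PBS the 10 became 31 without PBS replicate 1, 3 without HEK-EV replicate 2, 5 without MSC-EV replicate 3, and 0 without PBS replicate 2, PBS replicate 3, MSC-EV replicate 1 or MSC-EV replicate 2. In MSC-EV against HEK-EV the 12 became 22 without PBS replicate 1, 7 without PBS replicate 2, and 0 without any HEK-EV replicate or without MSC-EV replicate 1 or 2.

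The members did not move as a block. Over the 9 samples 27 of the 45 pairs of members had a Pearson r above 0, with a median r of 0.20, and with the group means taken out the median was 0.12 (27 pairs above 0). In MSC-EV against PBS Slc7a11, Gclm, Srxn1 and Prdx1 had intervals above 0, Gsr and Nfe2l2 had intervals below 0, and those of Gclc, Txnrd1, Hmox1 and Nqo1 included 0. The plot of alternative fits shows the values across 21 alternatives, 1 of which leaves a single sample in each vesicle group. Gsr was negative in all, from −1.06 to −0.47 against PBS with 7 passing and from −0.98 to −0.69 against HEK-EV with 13 passing. Over the same alternatives, against PBS, Gclm ran from 0.28 to 0.65 with 7 passing and Slc7a11 from 0.74 to 1.09 with 4 passing.

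**Figure D5:**
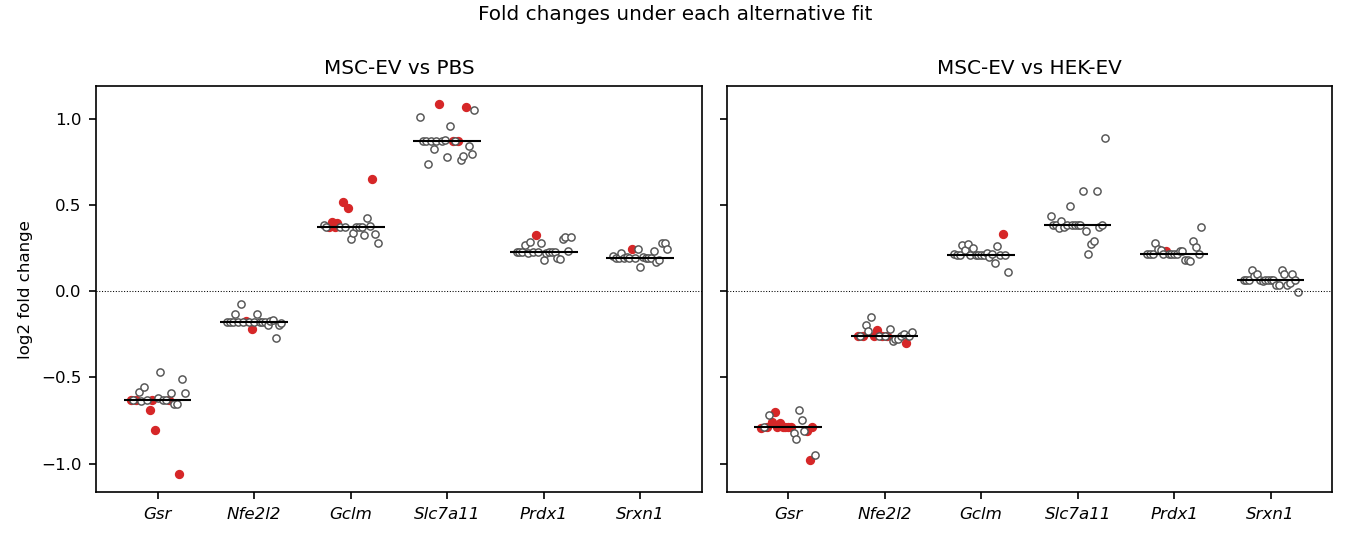
Log2 fold change (vertical axis) of 6 members under each of 21 alternative fits, red where the adjusted p was under 0.05 and open otherwise, with a bar at the reported value, for MSC-EV against PBS (left) and against HEK-EV (right). Gsr and Nfe2l2 stay below 0 and Gclm and Slc7a11 above 0 in every fit shown.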

How the data were processed

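CD11b+ liver cells were measured by bulk RNA-seq in 9 samples, 3 per treatment label. RNA was taken with Trizol and DNase, and the library kit was TruSeq Stranded mRNA, per the labels' own protocols. HISAT2 2.1.0, StringTie and mm10 are named in the submitters' processing notes. Whether counting used strand is not given in the sources used here. The authors deposited TPM, FPKM and coverage per gene, per the file headers. TPM was the main value, FPKM an alternative, and the deposited coverage served as a guide to depth. Rows of 1 gene ID were summed. Gene symbols were taken by gene ID from a RefSeq gene table (GRCm38.p6), which held 45679 of 45777 IDs.

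With limma 3.58.1 in R 4.3.3, log2(TPM + 1) was fitted for genes reaching 1 TPM in 3 or more samples, over all 9 samples (empirical Bayes with trend, two-sided, Benjamini-Hochberg over 13820 genes, threshold 0.05). The procedure was tested on simulated data with independent normal noise for each gene. That setting holds no differences shared by whole samples and does not address the dependence on single libraries. Fold changes are on the log2(TPM + 1) scale, which understates changes of low genes. Intervals are 95%. The members, the 7 pathway lists and the marker lists were chosen with earlier results of these data known. Named genes were all members, every pathway gene past the threshold in any comparison, and for a list with none its smallest p at a mean of at least 5 TPM; Keap1, Fth1, Hmox2, Idh1, Idh2 and Pgls were named beyond this rule after their values were seen. Likeness was ranked among genes of at least 5 TPM on average, and 1 gene so ranked is not reported here. Copies were sought with BLAST 2.17.0 in GENCODE transcripts (at least 95% identity over at least 200 bases).

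Of the marker lists not described with Gsr, 4 of 17 tested hepatocyte, 6 of 10 biliary and 1 of 5 lymphocyte genes were higher in MSC-EV against PBS (1.86% of all genes), and 0 Kupffer cell, dendritic, stellate, acinar and erythroid genes passed by limma (3, 5, 0, 0 and 1 at an unadjusted p under 0.05, in either direction). The dendritic sum was 3881 to 5169 TPM in PBS, 3714 to 5131 TPM with HEK-EV and 5388 to 7340 TPM with MSC-EV. Of its 12 genes, 8 had higher and 4 lower values with MSC-EV than in PBS (median log2 fold change 0.055). The biliary sum was 750.2 to 1720 TPM in PBS, 909.7 to 1199 TPM with HEK-EV and 1798 to 2390 TPM with MSC-EV. The hepatocyte sum was 524.0 to 605.2 TPM in PBS, 431.6 to 637.8 TPM with HEK-EV and 807.0 to 970.0 TPM with MSC-EV, and 1 of its 20 genes (Hnf4a) stayed under 1 TPM in every sample. So did 5 of 13 lymphocyte, 4 of 11 stellate, 2 of 12 biliary and 6 of 9 erythroid genes, and Slc4a1 of the last was listed at 0 in all.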

Additional observations from a re-analysis of the deposited data

Results flagged for a closer look

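By the test of MSC-EV against HEK-EV itself (limma, adjusted p under 0.05), the 2 vesicle groups differed for 2 of the 10 members. They also differed for 12 of the 115 other redox genes tested, where 5.91% of all 13820 genes passed. With any HEK-EV replicate, MSC-EV replicate 1 or MSC-EV replicate 2 left out, 0 members and 0 of these other genes passed. Since both vesicle effects are taken against the same PBS samples, the difference of their log2 fold changes equals MSC-EV against HEK-EV. It was −0.26 for Nfe2l2 and −0.79 for Gsr. Among the other genes it was negative for Abcc4 (−0.30), Bach1 (−0.34), G6pdx (−0.24), Ggct (−0.60), Ggt5 (−0.66), Gpx1 (−0.41), Nadk (−0.52) and Sesn2 (−0.32). It was positive for Akr1a1 (0.41), Gla (0.44), Gpx4 (0.32) and Sod3 (0.94). Sod3 passed the filter on low values only through the MSC-EV samples, so its value is a description and no support for a difference between sources. It is counted among the 12. For Sesn2 and Ggt5 the MSC-EV value against PBS was near its error (−0.08 and −0.22, adjusted p = 0.596 and 0.453), and the group means in TPM were 16.6, 19.9 and 15.6 for Sesn2 and 8.52, 11.98 and 7.22 for Ggt5 in PBS, HEK-EV and MSC-EV.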

How the results depend on the processing

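In MSC-EV against PBS, HEK-EV against PBS and MSC-EV against HEK-EV, 706, 0 and 817 genes passed, with 1, 0 and 2 members and 10, 0 and 12 pathway genes (Sod3 among the 10 and the 12). Without a filter these became 361, 4 and 387 genes, no member in the first and last, and 4 and 4 pathway genes. With array quality weights 4163 and 2081 genes passed in the MSC-EV comparisons, with 7 members against PBS and 57 and 33 pathway genes. With FPKM 436 genes and 0 members passed against HEK-EV, with 6 and 5 pathway genes, and with median-of-ratios scaling 512 genes, 1 member and 7 pathway genes did. Fitting only the 6 samples compared gave 77 genes, 0 members and 0 pathway genes against PBS (6 members at an unadjusted p under 0.05). A minimum of 5 TPM gave 2 members against PBS, and quantile normalisation 1 member against HEK-EV. Of the genes past the threshold against PBS, 36.4% were higher in the main setting, 47.2% with median-of-ratios scaling, 58.7% with FPKM and 54.6% without a filter, and against HEK-EV 25.6%, 46.3% with median-of-ratios scaling and 54.8% with FPKM. Replicate numbers are shared across groups, and the labels do not say whether they pair the samples. Deviations from the group means correlated at −0.499 to 0.058 for same-numbered samples and at −0.277 to 0.547 for the others. With 3 samples per group these values cannot settle whether the numbers mark a pairing. A replicate block gave 404 and 448 genes, 1 member against HEK-EV and 3 and 4 pathway genes. Chosen after seeing the data, a depth covariate gave 1339 and 1449 genes, 3 members against PBS and 24 and 23 pathway genes. The split by acinar transcripts as a term, also added later, gave 21 genes and 0 members against PBS, 1 member against HEK-EV and 0 and 5 pathway genes, and Gsr was then −0.51 against PBS (adjusted p = 0.214). The 5 samples without acinar transcripts, which leave 1 sample in each vesicle group (assumed to vary like the PBS samples), say nothing about stability and gave 0 genes, 0 members and 0 pathway genes in the MSC-EV comparisons by limma (1615 and 1567 genes at an unadjusted p under 0.05), with Gsr at −0.59 and −0.95. Leaving out 1 library gave 5 to 1861, 0 to 2 and 0 to 1369 genes, 0 to 4 and 0 to 2 members, and 0 to 31 and 0 to 22 pathway genes, the lowest against PBS without PBS replicate 2 (5 genes) and the highest without PBS replicate 1. Most log2 fold changes that turned direction were in HEK-EV against PBS. There, weights gave Hmox1 0.066, Nqo1 −0.033, Akr1a1 0.036, Ggct −0.16 and Nadk −0.038; the depth covariate Hmox1 0.029, Gsr −0.084, Akr1a1 0.066, G6pdx −0.046, Ggct −0.16 and Nadk −0.10; the acinar term Hmox1 0.040; the 5 samples Hmox1 0.21 and Prdx1 −0.061; FPKM Gclc −0.0038, Prdx1 −0.012 and G6pdx −0.0007; median-of-ratios Gclc −0.014, Txnrd1 −0.010, Prdx1 −0.022 and G6pdx −0.011; and quantile Gclc −0.022, Akr1a1 0.023 and Gla −0.0009. Against PBS with MSC-EV, weights gave Txnrd1 0.0003, depth Txnrd1 0.042 and Ggt5 0.072, the acinar term Sesn2 0.0002 and quantile Nqo1 −0.019. Against HEK-EV, Nqo1 was 0.066 with weights, 0.022 with depth and 0.0006 with median-of-ratios scaling, and the 5 samples gave Hmox1 −0.13 and Srxn1 −0.0046. Leaving out 1 library, HEK-EV against PBS ran from −0.14 to 0.035 for Hmox1, −0.067 to 0.17 for Nqo1, −0.047 to 0.13 for Gclc, −0.035 to 0.075 for Txnrd1, −0.013 to 0.32 for Gsr, −0.036 to 0.064 for Prdx1, −0.064 to 0.047 for Akr1a1, −0.12 to 0.040 for Bach1, −0.027 to 0.066 for G6pdx, −0.14 to 0.13 for Ggct, −0.043 to 0.14 for Gla and −0.061 to 0.099 for Nadk, and Nqo1 against HEK-EV from −0.13 to 0.11. The cause was not tested. Of all member fold changes under the alternatives, 533 kept direction and side of the threshold, 36 lost and 20 gained the call and 35 turned direction. Nqo1 passed neither the filter on FPKM nor that at 5 TPM and has no value there. Without counts, no counting error could be given.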
